A study of Mus musculus with 8 samples.

Results

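The aryl hydrocarbon receptor gene Ahr, its repressor gene Ahrr and 3 classical targets of the receptor, Cyp1a1, Cyp1b1 and Tiparp, were followed by name, as 5 of the 16649 genes in the deposited matrix. The data were single-cell RNA counts from CD4+ T cells of the spleens of 10-week-old female mice, cultured and harvested on day 3. There were 4 groups of 2 libraries. Gpr65 KO Th22 cells lacked Gpr65, a proton-sensing G protein-coupled receptor, and were polarized with 20 ng/ml each of IL-23 and IL-1b, with 40 ng/ml of IL-6 and 400 nM of FICZ. Gpr65 KO Th17 cells had IL-23 and IL-1b at those doses but 25 ng/ml of IL-6 and no FICZ, and WT Th22 and WT Th17 cells were wild-type cells under those same 2 conditions. FICZ, a tryptophan photoproduct, is a high-affinity ligand of the receptor. Th22 and Th17 cultures thus differed in FICZ and in the IL-6 dose, and the effects of these cannot be told apart. The labels state neither which part of Gpr65 was deleted nor whether the 2 libraries of a group came from separate animals, so the p-values rest on how far libraries of a group spread, part of which may be technical.

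The aryl hydrocarbon receptor is a bHLH-PAS transcription factor that rests in the cytoplasm with HSP90. On binding a ligand it moves to the nucleus, pairs with ARNT and binds the xenobiotic response element, whose core is GCGTG. In helper T cells it is known for its place in IL-22 production by Th17 and Th22 cells, and its targets include enzymes that degrade its ligands (Cyp1a1, Cyp1b1) and proteins that restrain the receptor itself (Ahrr, Tiparp).

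The promoters of the target genes are shown because the receptor acts through that core, whose letters are in capitals (GCGTG, or CACGC where the core is on the other strand). RefSeq (GRCm38.p6) gave a window of 250 bases before to 50 after the start site for 4 of the 5 genes, all but Ahr. Positions below count from the start site. The window of Cyp1a1, chr9:57697363-57697662 on the plus strand, held the core at -54. That of Cyp1b1, chr17:79715012-79715311 on the minus strand, held it at -76 on the other strand. That of Ahrr, chr13:74292282-74292581 on the minus strand, held it at -107, -82 and -27. That of Tiparp, chr3:65528197-65528496 on the plus strand, held it at -170 on the other strand.
Cyp1a1: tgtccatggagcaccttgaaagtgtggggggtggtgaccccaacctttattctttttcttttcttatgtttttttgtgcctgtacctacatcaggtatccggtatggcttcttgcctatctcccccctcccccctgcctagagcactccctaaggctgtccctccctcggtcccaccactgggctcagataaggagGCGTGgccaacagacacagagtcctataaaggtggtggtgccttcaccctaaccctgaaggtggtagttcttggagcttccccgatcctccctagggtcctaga
Cyp1b1: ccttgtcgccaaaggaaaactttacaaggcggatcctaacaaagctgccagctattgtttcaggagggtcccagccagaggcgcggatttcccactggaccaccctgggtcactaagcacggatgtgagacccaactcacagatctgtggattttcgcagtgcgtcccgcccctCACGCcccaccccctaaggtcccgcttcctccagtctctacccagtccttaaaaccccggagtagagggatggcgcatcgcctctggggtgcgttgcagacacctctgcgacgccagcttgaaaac
Ahrr: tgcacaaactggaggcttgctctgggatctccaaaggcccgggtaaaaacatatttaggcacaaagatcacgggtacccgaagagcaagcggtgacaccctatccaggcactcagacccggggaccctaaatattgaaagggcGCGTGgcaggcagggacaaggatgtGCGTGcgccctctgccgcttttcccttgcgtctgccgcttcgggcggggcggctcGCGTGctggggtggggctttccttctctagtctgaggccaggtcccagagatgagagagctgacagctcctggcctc
Tiparp: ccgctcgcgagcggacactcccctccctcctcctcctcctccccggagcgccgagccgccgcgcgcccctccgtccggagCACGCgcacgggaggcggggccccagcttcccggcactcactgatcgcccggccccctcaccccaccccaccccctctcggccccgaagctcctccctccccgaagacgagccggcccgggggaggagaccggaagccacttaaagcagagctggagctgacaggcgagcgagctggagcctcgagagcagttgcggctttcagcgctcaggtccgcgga
Searched on both strands, GCGTG occurred at least once in 32.4% of 32851 RefSeq promoter windows of this length and at least 3 times in 3.91%, so a single match is common. The longer form TNGCGTG, which contains the core, was found in 5.07% of windows and, among the 4 shown, in that of Ahrr, where it overlapped the last match. A match is a run of letters and shows no binding.

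In the GRCm38 annotation (GENCODE), Ahr lies at chr12:35497974-35535038 on the minus strand and Ahrr at chr13:74211118-74292331 on the minus strand. Cyp1a1 lies at chr9:57687928-57703824 on the plus strand, and its RefSeq window falls inside that span. Cyp1b1 lies at chr17:79701537-79715061 on the minus strand and Tiparp at chr3:65528410-65555518 on the plus strand. Ahr and Tiparp overlap genes on the opposite strand, Gm48236 and 4931440P22Rik, and reads of the partners cannot be told apart unless counting used strand, about which the sources used here say nothing.

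Each library held 9969 to 15119 cells that passed the filters, with a median of 2354 to 4142 UMIs (unique molecular identifiers, each standing for 1 captured mRNA) per cell. Gpr65 stood at 0.887 to 1.58 CPM (counts per 1000000 UMIs of a library, with TMM scaling) in the KO libraries, against 50.6 to 72.9 CPM in the WT libraries, as their labels say. The CD4 T markers Cd3e, Cd3d, Cd4, Trac, Trbc1 and Trbc2, of which only Cd4 is particular to CD4 T cells, were summed. They gave 3515 to 4006 CPM in Th22 libraries and 2659 to 3422 CPM in Th17 libraries. Macrophage and monocyte markers (4 of 6 in the matrix) summed to 24.0 to 31.0 CPM in Th22 and 18.1 to 26.2 CPM in Th17 libraries, and B cell markers (5 of 5) to 34.4 to 47.5 CPM in Th22 and 26.7 to 43.4 CPM in Th17. Those of NK cells (2 of 3) summed to 0.178 to 0.763 CPM over the 8 libraries, of dendritic cells (2 of 4) to 0.114 to 0.413 CPM, and of erythroid cells (1 of 3) to 0 to 0.752 CPM. Their part in the results was not tested. Of the kept cells 2.43% had a barcode sequence that also occurred in another library, and no count of called members changed without them. The KO replicates differed: all 5 genes were lower in KO Th22 replicate 2 than in replicate 1, and Ahr, Ahrr and Tiparp were also lower in KO Th17 replicate 2 than in replicate 1. Which replicate stood apart is not shown by this: Ahr in Th22 was 13.0 and 6.96 CPM in KO, against 8.35 and 9.59 CPM in WT. For Th22 against Th17 and for KO against WT, values without both KO libraries numbered 2 are given where they change a call or a direction. That setting was not planned, and a fit without both KO libraries numbered 1 was not run.

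Cyp1a1, Cyp1b1, Ahrr and Tiparp were all higher in Th22 than in Th17 cells over both genotypes, by edgeR's quasi-likelihood test with Benjamini-Hochberg adjustment over 13412 genes at 0.05. The cytochrome P450 genes Cyp1a1 and Cyp1b1 were near 0 in Th17 cells. The summed level of Ahrr was 4.69 times as high in Th22 as in Th17 cells in KO and 4.87 times in WT, and that of Tiparp 3.79 times in KO and 2.75 times in WT. Ahr itself did not pass the test, with a log2 fold change of -0.37. So 4 of the 5 genes were called higher, where 1.01% of all genes tested were. Cyp1a1 and Cyp1b1 passed the filter on low counts through their Th22 libraries, so being tested they had to differ, and this count is a description.

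Cyp1a1 encodes the cytochrome P450 that oxidizes polycyclic aromatic compounds and degrades FICZ itself. Its level was 14.0 and 8.40 CPM in KO Th22 replicates 1 and 2, against 0.0971 and 0.127 CPM in KO Th17 replicates 1 and 2. It was 9.49 and 13.6 CPM in WT Th22, against 0.0569 and 0.239 CPM in WT Th17. All 4 Th22 libraries were far above all 4 Th17 libraries, and the genotypes overlapped within each condition. The counts behind these levels were 646 and 444 UMIs in KO Th22 against 4 and 5 in KO Th17, and 433 and 641 in WT Th22 against 2 and 10 in WT Th17. The ratio of the summed levels was 98.4 in KO (exact 95% interval 51.6 to 216) and 74.4 in WT (42.4 to 144), where the intervals cover counting error only. The log2 fold change of Th22 against Th17 was 6.61 ± 0.51 (SE) in KO (adjusted p = 0.0052), 6.20 ± 0.49 in WT (adjusted p = 0.0068) and 6.39 ± 0.33 over both (adjusted p = 7.7e-05, edgeR). By log2 fold change over both it ranked 3 of 13412. Since Cyp1a1 passed the filter through Th22 and was near 0 in Th17, its rank and p-values are a description.

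Cyp1b1 encodes a related P450 that metabolizes polycyclic aromatics and oestradiol. It was at 7.33 and 2.91 CPM in KO Th22, against 0.0728 and 0.0763 CPM in KO Th17. It was at 6.18 and 8.81 CPM in WT Th22, against 0 and 0.0716 CPM in WT Th17. Here too the conditions did not overlap, and KO Th22 replicate 2 was the lowest of the 4 Th22 libraries. With 493 UMIs in KO Th22 against 6 in KO Th17, the ratio was 66.7 (exact 95% interval 30.4 to 183). With 697 UMIs in WT Th22 against 3 in WT Th17, it was 193 (65.8 to 939). The log2 fold change over both genotypes was 6.70 ± 0.51, the highest of 13412 genes (adjusted p = 0.00050, edgeR), and it was 6.04 ± 0.72 in KO (adjusted p = 0.035) and 7.49 ± 0.78 in WT (adjusted p = 0.022). Leaving out 1 library at a time moved the WT value between 6.66 and 11.36, the higher value without WT Th17 replicate 2, which leaves a Th17 library with 0 UMIs. As for Cyp1a1, the rank and p-values of Cyp1b1 are a description.

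Tiparp encodes an ADP-ribosyltransferase that is induced by receptor ligands and restrains the receptor by modifying it. Its level was 71.1 and 47.2 CPM in KO Th22, against 17.4 and 13.3 CPM in KO Th17. In wild-type cells it was 61.6 and 64.5 CPM in Th22, against 22.9 CPM in both Th17 libraries. The 4 Th22 libraries lay well above the 4 Th17 libraries, and within Th17 both KO libraries lay below both WT libraries. The log2 fold change was 1.94 ± 0.21 in KO (adjusted p = 0.024) and 1.46 ± 0.21 in WT (adjusted p = 0.076, not past the threshold), and 1.70 ± 0.16 over both (adjusted p = 0.0018, edgeR).

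Ahrr encodes a bHLH-PAS protein that competes with the receptor for ARNT and represses its targets. It was at 8.11 and 5.46 CPM in KO Th22, against 1.72 and 1.12 CPM in KO Th17. It was at 7.15 and 8.74 CPM in WT Th22, against 1.36 and 1.86 CPM in WT Th17. The conditions did not overlap, and each genotype showed nearly the same step. The log2 fold change was 2.25 ± 0.29 in KO (adjusted p = 0.054, not past the threshold), 2.29 ± 0.29 in WT (adjusted p = 0.040) and 2.27 ± 0.19 over both (adjusted p = 0.00093, edgeR).

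**Figure D1:**
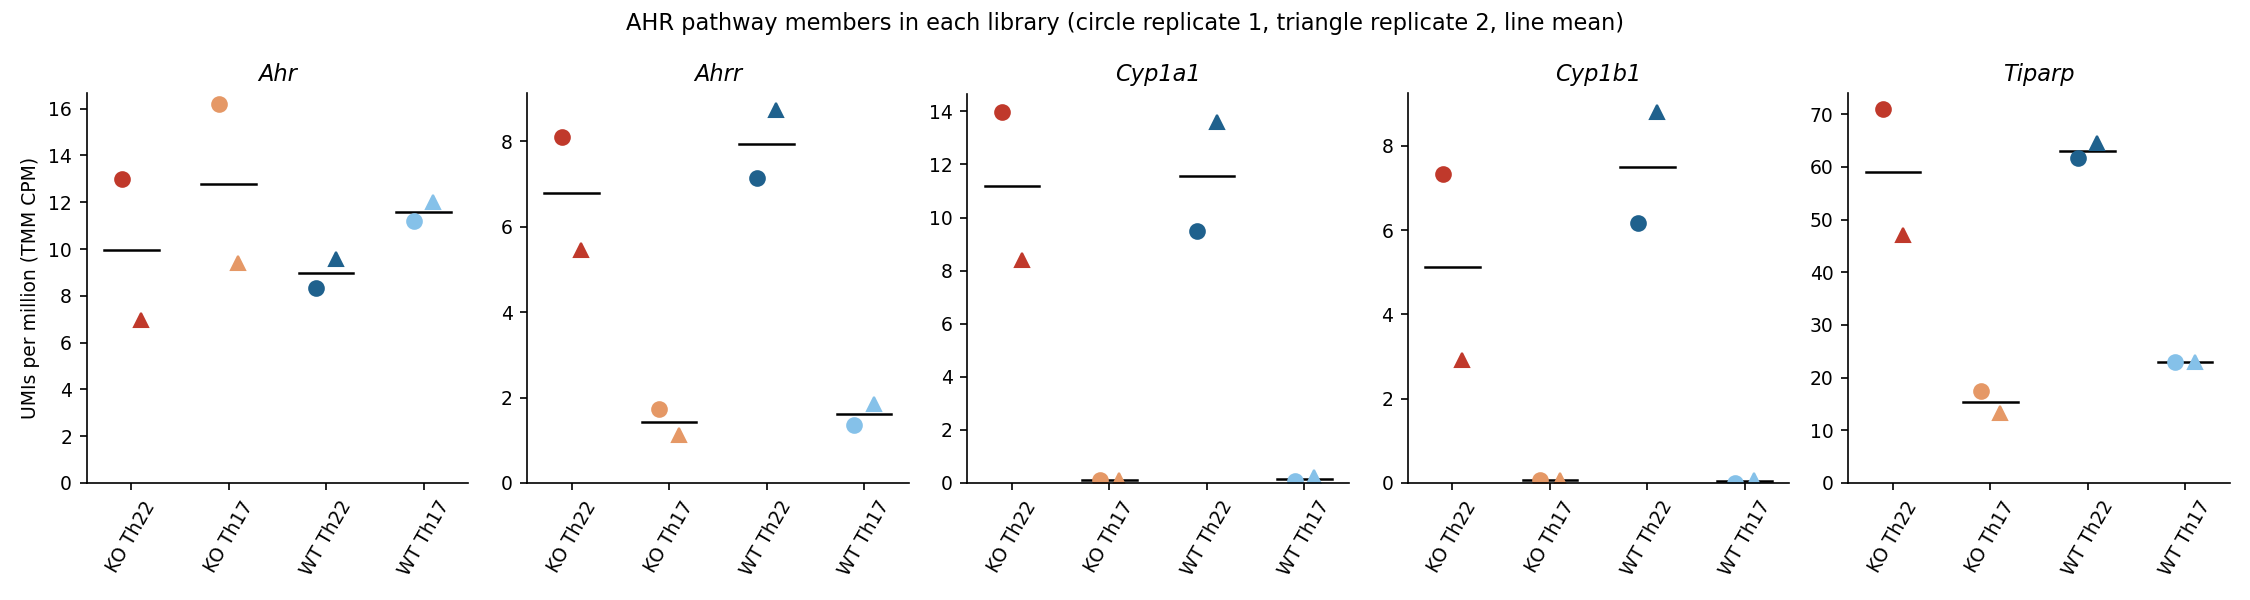
Level of each gene in CPM (y axis, linear from 0, own scale per gene) in the 2 libraries of each group (x axis); circles are replicate 1, triangles replicate 2 and lines the group mean. Cyp1a1, Cyp1b1, Ahrr and Tiparp sit higher in every Th22 library than in any Th17 library, while the Ahr points of Th22 and Th17 overlap through the KO libraries.

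Within one genotype, 3 of the 5 genes were called higher in KO (Cyp1a1, Cyp1b1 and Tiparp), where 0.0746% of all genes tested were, and 3 of the 5 in WT (Cyp1a1, Cyp1b1 and Ahrr), where 0.0969% were. DESeq2 called 4 higher in each genotype (background 0.529% in KO and 0.544% in WT), Ahrr in KO and Tiparp in WT being the additional ones. Cyp1a1 and Cyp1b1 passed the filter on low counts through their Th22 libraries, so these counts are a description. Without both KO libraries numbered 2, which leaves 1 library in each KO group, the log2 fold change was 2.24 for Ahrr in KO and 1.46 for Tiparp in WT. Calls within a genotype hung on single libraries: leaving out 1 library at a time gave 1 to 4 called members in KO and 0 to 4 in WT, while over both genotypes 4 remained called each time. In WT, 0 were called without WT Th22 replicate 2, WT Th17 replicate 1 or WT Th17 replicate 2, and 1 was called without WT Th22 replicate 1. In KO, 1 was called without either KO Th17 library or without any 1 of the 4 WT libraries. In KO, 0 were called in a fit to only the 2 groups compared or with depth as a covariate, where Cyp1a1 had log2 fold changes of 6.60 (adjusted p = 0.187) and 5.43 (adjusted p = 0.231, edgeR). Of all genes tested, 0 and 2 were called there. The log2 fold changes of the 4 targets stayed positive in all of these fits.

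Ahr, the receptor gene, was at 13.0 and 6.96 CPM in KO Th22, against 16.2 and 9.41 CPM in KO Th17. It was at 8.35 and 9.59 CPM in WT Th22, against 11.2 and 12.0 CPM in WT Th17. In KO the 2 conditions overlapped, with replicate 1 high and replicate 2 low under both, whereas both WT Th22 libraries lay below both WT Th17 libraries. Its log2 fold change was -0.36 ± 0.32 in KO (adjusted p = 0.77), -0.37 ± 0.33 in WT (adjusted p = 0.85) and -0.37 ± 0.21 over both (95% interval -0.85 to 0.11, adjusted p = 0.49, edgeR). Taken within a genotype and replicate number, however, Ahr was lower in the Th22 library in 4 of 4 pairs, by 2.41 to 3.21 CPM. Same-numbered Th22 and Th17 libraries of a genotype also deviated together across genes, and with the replicate number as a block Ahr was called lower in Th22 in KO (-0.37 ± 0.082, adjusted p = 0.0100), in WT (-0.37 ± 0.084, adjusted p = 0.014) and over both (-0.37 ± 0.063, adjusted p = 0.0045). In that blocked fit all 5 genes were called, where 16.9% of all genes were called in KO, 12.9% in WT and 11.9% over both, so a blocked call was common. Ahrr in KO (adjusted p = 1.0e-06) and Tiparp in WT (adjusted p = 1.3e-07) also passed with the block. Gamma-delta T markers differed between the same libraries, at 30.7 and 14.8 CPM in KO Th22, 25.1 and 11.9 CPM in KO Th17, 14.7 and 20.8 CPM in WT Th22, and 12.4 and 17.2 CPM in WT Th17. Cluster 7, which held most of those markers, gave 33 of the 1801 Ahr UMIs in Th22 and 28 of the 1934 in Th17. Without clusters 7, 9 and 11 the log2 fold change of Ahr over both was -0.37. The part of cell composition in the Ahr levels was not tested.

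**Figure D2:**
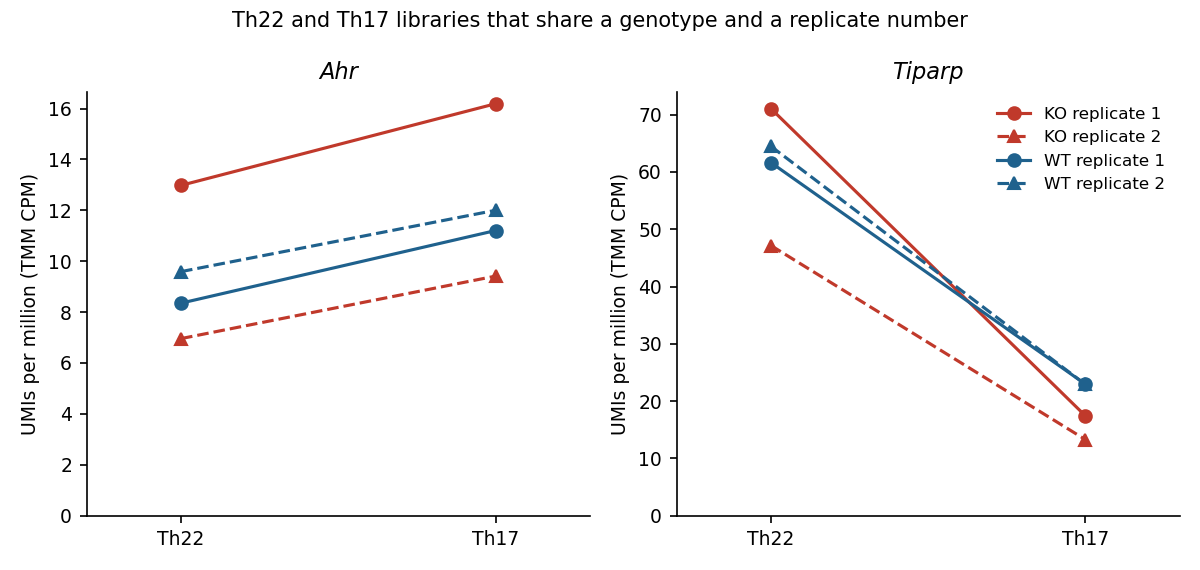
Level of Ahr (left) and Tiparp (right) in CPM (y axis) in Th22 and Th17 libraries (x axis), with lines joining libraries of the same genotype and replicate number. Every Ahr line is lower at Th22 and every Tiparp line is higher there.

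Whether loss of Gpr65 moved these genes was asked within each condition. In Th22, Cyp1a1 averaged 11.2 ± 3.9 CPM in KO and 11.5 ± 2.9 CPM in WT, and Cyp1b1 averaged 5.12 ± 3.1 CPM in KO and 7.49 ± 1.9 CPM in WT (SD, n = 2 each). Ahrr averaged 6.79 ± 1.9 CPM in KO and 7.94 ± 1.1 CPM in WT, and Ahr 9.97 ± 4.3 CPM in KO and 8.97 ± 0.88 CPM in WT. None of the 5 was called: the log2 fold changes of KO against WT in Th22 were -0.048 for Cyp1a1 (95% interval -0.76 to 0.66), -0.55 for Cyp1b1 (-1.52 to 0.41) and -0.23 for Ahrr (-0.83 to 0.37). They were -0.094 for Tiparp (-0.56 to 0.37) and 0.15 for Ahr (-0.61 to 0.91). Without both KO libraries numbered 2 the sign turned for 3 genes, with 0.28 for Cyp1a1, 0.18 for Tiparp and 0.036 for Ahrr, and again none was called. A p that misses the threshold does not show that the genotypes were alike, and the intervals give the sizes these libraries allow.

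In Th17, Tiparp was at 17.4 and 13.3 CPM in KO, against 22.9 CPM in both WT libraries. Both KO libraries were below both WT libraries, with a log2 fold change of -0.58 (95% interval -1.06 to -0.099) and an unadjusted p of 0.024 that did not pass after adjustment (adjusted p = 0.32, edgeR). The other 4 had intervals that included 0, among them Cyp1a1, with 9 UMIs in KO and 12 in WT (ratio 0.718, exact 95% interval 0.267 to 1.86), and Cyp1b1, with 6 and 3 UMIs (ratio 1.91, 0.409 to 11.8). With 0 of 5 called in Th22 and 0 of 5 in Th17, the backgrounds were 0.149% and 0.186% of all genes tested. At an unadjusted p under 0.05 there were 0 in Th22 and 1 in Th17, where 1569 and 1632 of all 13412 genes tested were. DESeq2 called 0 in each. Over both conditions 0 of 5 were called (background 2.93%), with 0 at an unadjusted p under 0.05 (2597 of all 13412 genes) and 0 by DESeq2. Single libraries mattered for the log2 fold changes over both conditions. That of Tiparp was -0.33 with all libraries and -0.51 without KO Th22 replicate 1. That of Ahr was 0.15 with all libraries and 0.51 without both KO libraries numbered 2. The reduced fits leave 1 library in a group, and calls in them are not read as results about these genes.

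The step of Th22 against Th17 was also compared between the genotypes. By the interaction of genotype and polarization, 0 of the 5 genes and 0% of 13412 genes were called by edgeR (566 genes and 0 members had an unadjusted p under 0.05, and DESeq2 called 12 genes and 0 members). The differences of log2 fold changes, KO minus WT, were 0.41 for Cyp1a1 (95% interval -1.75 to 2.57), -1.45 for Cyp1b1 (-5.34 to 2.44), -0.042 for Ahrr (-0.99 to 0.91), 0.48 for Tiparp (-0.18 to 1.15) and 0.0071 for Ahr (-1.06 to 1.08). With the replicate block, 1 member passed, where 4.1% of all genes did: the rise of Tiparp was larger in KO by 0.47 ± 0.095 on the log2 scale (adjusted p = 0.016). The 4 pairs gave log2 ratios of 2.03 and 1.83 in KO and 1.43 and 1.49 in WT.

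**Figure D3:**
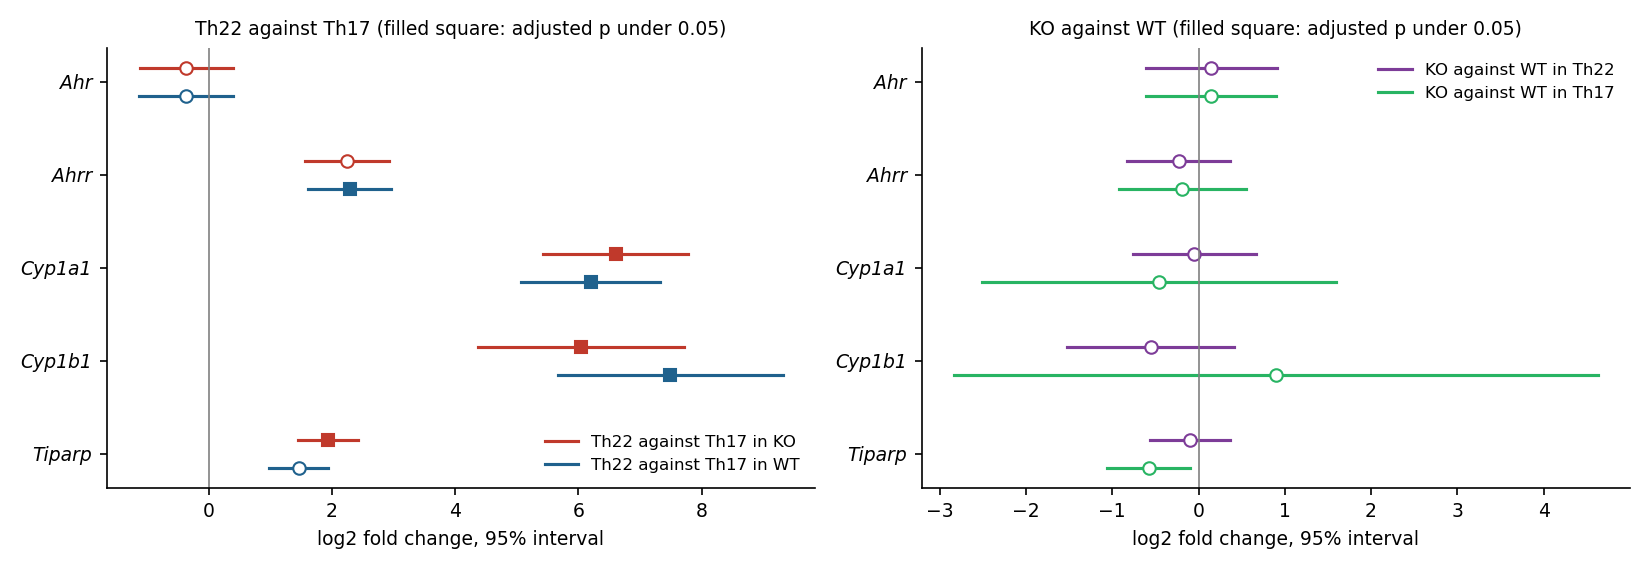
Log2 fold change (x axis) of each gene (y axis) for Th22 against Th17 in KO and WT (left) and KO against WT in Th22 and Th17 (right), with bars for 95% intervals and filled squares for adjusted p under 0.05 in edgeR. The 4 targets lie right of 0 in both genotypes on the left, and on the right only the interval of Tiparp in Th17 excludes 0.

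How many cells responded was read from cells thinned to 1500 UMIs each, since depth differed between libraries. This kept 93046 cells and left out 8642 shallower ones. Cyp1a1 had a UMI in 1.92% and 1.01% of cells in KO Th22, against 0.00801% and 0.0166% in KO Th17. It had one in 1.43% and 1.98% in WT Th22, against 0.00967% and 0.0413% in WT Th17. On average this was 1.58 ± 0.45% in Th22 and 0.0189 ± 0.015% in Th17 (SD, n = 4 each), and no library of one condition overlapped the other. Without thinning the means were 3.75% and 0.0452%, so the share depends on depth and counts cells with a UMI rather than cells expressing the gene.

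The other targets showed the same split. Cyp1b1 had a UMI in 0.954 ± 0.45% of Th22 cells and 0.00824 ± 0.012% of Th17 cells, Ahrr in 1.06 ± 0.27% and 0.257 ± 0.051%, and Tiparp in 8.35 ± 1.6% and 2.93 ± 0.74%. A UMI of Cyp1a1, Cyp1b1 or Ahrr was seen in 3.53 ± 1.1% of Th22 cells and 0.284 ± 0.059% of Th17 cells. Cyp1b1 had a UMI in 0 of 10341 cells of WT Th17 replicate 1 and 0 of 9696 of replicate 2, for which the upper bounds of the exact 95% intervals are 0.0357% and 0.0380%. For these 5 shares the exact two-sided permutation test within genotype gave p = 0.0556, the smallest its 36 arrangements allow (adjusted p = 0.133 over 12 shares), so the test could not reach 0.05. Ahr went the other way, with a UMI in 1.34 ± 0.42% of Th22 cells and 2.00 ± 0.47% of Th17 cells, where the libraries overlapped (exact p = 0.111). Between genotypes all 6 shares overlapped (exact p 0.111 to 0.833).

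**Figure D4:**
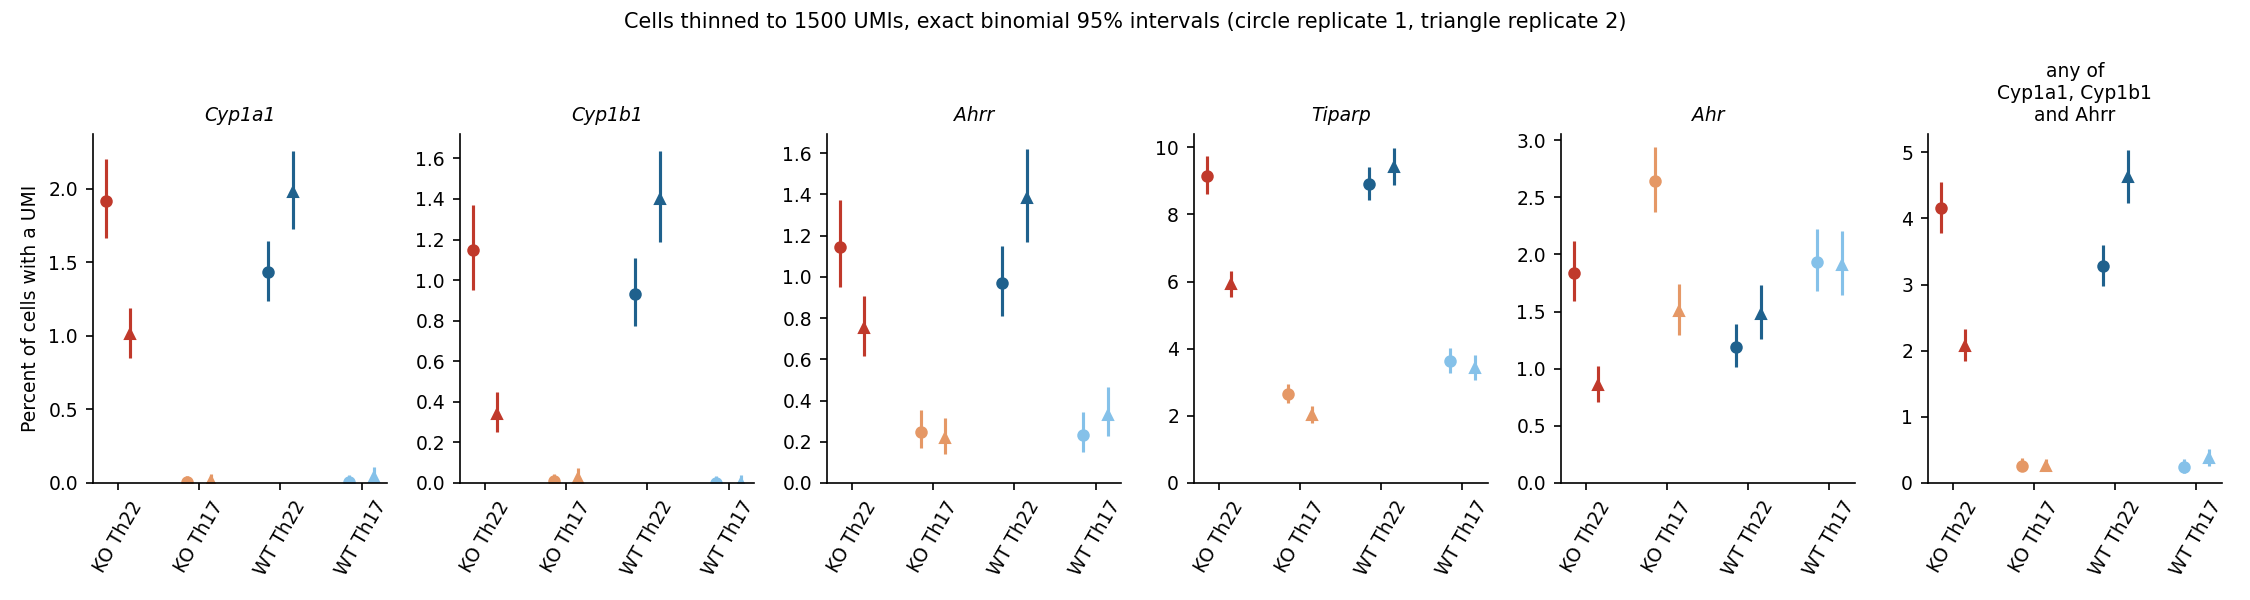
Percent of cells with a UMI of each gene (y axis) per library (x axis, by group) after thinning to 1500 UMIs, with exact binomial 95% intervals; circles are replicate 1 and triangles replicate 2. Th22 libraries lie above Th17 libraries for each of the targets, and KO Th22 replicate 2 is the lowest Th22 library throughout.

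Few cells carried several of the transcripts at this depth. At least 1 of the 4 targets had a UMI in 12.7% and 7.74% of cells in KO Th22, against 2.90% and 2.27% in KO Th17, and in 11.8% and 13.3% in WT Th22, against 3.86% and 3.76% in WT Th17. Exactly 2 of the 4 had one in 0.597% and 0.274% of cells in KO Th22 and 0.410% and 0.792% in WT Th22, and no cell had all 4. Cells with an Ahr UMI had a Cyp1a1 UMI in 3.66% and 2.52% of cases in KO and 2.50% and 5.59% in WT, against 1.88% and 0.997% in KO and 1.42% and 1.93% in WT for cells without one. The share was higher beside an Ahr UMI in 4 of 4 Th22 libraries, but this rested on 23 cells with both. Cells with a Tiparp UMI likewise had Cyp1a1 more often in 4 of 4 Th22 libraries, on 110 cells with both. For Ahr and Tiparp together the direction differed between libraries (higher with Ahr in 2 of 4). Il22, the cytokine that Th22 cells are named for, had a Cyp1a1 UMI beside it in 19 of 693 Il22-positive Th22 cells, and the share was higher than in Il22-negative cells in 3 of 4 libraries. Tiparp was seen more often beside Il22 in 2 of 4 libraries, and Cyp1a1 more often beside the cytokine Il17a in 2 of 4. These shares describe cells of the same libraries and were not tested.

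The deposited cell table sorted the cells into 12 clusters, numbered 0 to 11, and the 5 genes differed in how they spread over them. The clusters were made from these same cells, so levels across them are a description. Levels here are UMIs over the summed UMIs of a cluster's pooled libraries, without TMM scaling. With the 4 Th22 libraries pooled, Cyp1a1 was highest in cluster 0 at 15.5 CPM (exact Poisson 95% interval 14.7 to 16.5) and in clusters 2 and 6 at 14.0 and 11.9 CPM. It was lowest in cluster 7, where 4 UMIs gave 0.821 CPM (0.224 to 2.10). The remaining clusters lay between 2.29 CPM (cluster 9, on 2 UMIs) and 9.17 CPM, and the intervals of neighbours in that order overlapped, clusters 0, 2 and 6 included. This order is that of the pooled libraries: in KO Th22 the pooled level was 16.2 CPM in cluster 0, 10.8 in cluster 2 and 5.60 in cluster 6, whereas in WT Th22 it was 14.8, 16.0 and 21.7 CPM. The level of cluster 6 differed widely between libraries, at 9.22 and 3.13 CPM in KO Th22 and 10.1 and 34.4 CPM in WT Th22, on 6 to 34 UMIs each. In Th17 cells no cluster held more than 12 UMIs of Cyp1a1.

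Cluster 7 was the cluster in which the gamma-delta T markers Trdc, Tcrg-C1, Tcrg-C2 and Tcrg-C4 summed to 691 CPM in Th22 cells, against 1.44 to 18.2 CPM in each other cluster. Markers of CD8 T cells were also highest there in Th22 cells, at 63.0 CPM against 4.59 to 13.9 CPM, and those of NK cells at 6.16 CPM against 0 to 1.3 CPM. The list of CD4 T markers summed to 3731 CPM in Th22 cells of cluster 7, within its range of 2232 to 4023 CPM over the other clusters. Besides Cd4 that list holds CD3 and T cell receptor genes, so its sum does not set CD4 T cells apart from other T cells. The part of these cell types in the levels of cluster 7 was not tested. Tiparp, Ahrr and Ahr lay within their ranges over the other clusters there. Tiparp stood at 55.4 CPM there (49.0 to 62.5), within its range of 49.4 to 65.9 CPM over the 10 clusters other than 9 and 11. Ahrr stood at 8.21 CPM, near the top of its range of 4.90 to 8.73 CPM over those clusters, and Ahr at 6.77 CPM in a range of 4.95 to 11.2 CPM. Cyp1b1 was at 3.08 CPM on 15 UMIs, the lowest of the 10, with intervals that overlapped those of several others. After thinning, 1 of 1110 Th22 cells of cluster 7 had a Cyp1a1 UMI (0.0901%, exact 95% interval 0.00228% to 0.501%), against 386 of 18842 in cluster 0 (2.05%) and 2.24% in cluster 2. The median depths before thinning were 3800 and 3037 UMIs. In droplet data free RNA adds UMIs to cells that do not express a gene. Its part in these shares was not tested. Among clusters with a thinned Cyp1a1 UMI in Th22 the share in cluster 7 was the lowest. Its interval overlapped that of cluster 4 (5 of 1364 cells, 0.367%, 0.119% to 0.853%). Clusters 9 and 11 had a Cyp1a1 UMI in 0 of 279 and 0 of 227 Th22 cells.

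Within clusters, Th22 was compared with Th17 over both genotypes where every library had at least 50 cells, which left clusters 0 to 9. Tiparp was called higher in each of the 9 clusters in which it was tested (0 to 8), with log2 fold changes of 0.96 to 1.85, and in cluster 7 it was 1.50 ± 0.20 (adjusted p = 2.8e-05, edgeR). The background of genes called higher was 0.372%, 1.48%, 1.21%, 0.327%, 0.166%, 0.165%, 0.271%, 0.26% and 1.01% of those tested in clusters 0 to 8. Cyp1a1 passed the filter in 5 clusters and was called in all 5 (0, 1, 2, 3 and 6), with log2 fold changes of 6.05 to 7.09. Cyp1b1 was called in 4 of 5 (0 to 3, and not in 5, adjusted p = 0.055) and Ahrr in 4 of 4 (0 to 3). Fewer calls were made within 1 genotype. Tiparp was called higher in 7 of 9 clusters in KO (0 to 3 and 5 to 7) and in 2 of 9 in WT (1 and 2), and Ahrr in 0 of 4 in KO and 3 of 4 in WT (0 to 2). Cyp1a1 was called in 4 of 5 in KO and 3 of 5 in WT, and Cyp1b1 in 2 of 5 in each. In KO the background was 0.0507%, 0.325%, 0.219%, 0.0511%, 0.0255%, 0.03%, 0.122%, 0.169% and 0.579% of genes called higher in clusters 0 to 8. In WT it was 0.0507%, 0.351%, 0.333%, 0.0307%, 0.0128%, 0.03%, 0.0407%, 0.0651% and 0.0457%. Whether these counts differ between the genotypes was not tested. As before, Cyp1a1 and Cyp1b1 entered a fit only through their Th22 libraries, and so did Ahrr in clusters 2 and 3. In cluster 2 each Th17 library held 2 to 5 UMIs of Ahrr. These calls are therefore a description. Ahr was tested in 9 clusters and called in 0, with log2 fold changes of -1.23 to 0.10, with 3 at an unadjusted p under 0.05 (clusters 1, 3 and 8). How many of all genes reached that level in these clusters was not counted. In Th17 cells the pooled Ahr level was highest in cluster 0 at 17.3 CPM, a rank that rested on KO Th17 replicate 1, where it was 27.1 CPM, against 11.9 to 14.5 CPM in the other Th17 libraries. In WT Th17 it was 14.0 CPM in cluster 0 and 16.6 CPM in cluster 3, and in KO Th17 replicate 2 it was 11.9 CPM in cluster 0 and 14.8 CPM in cluster 5.

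**Figure D5:**
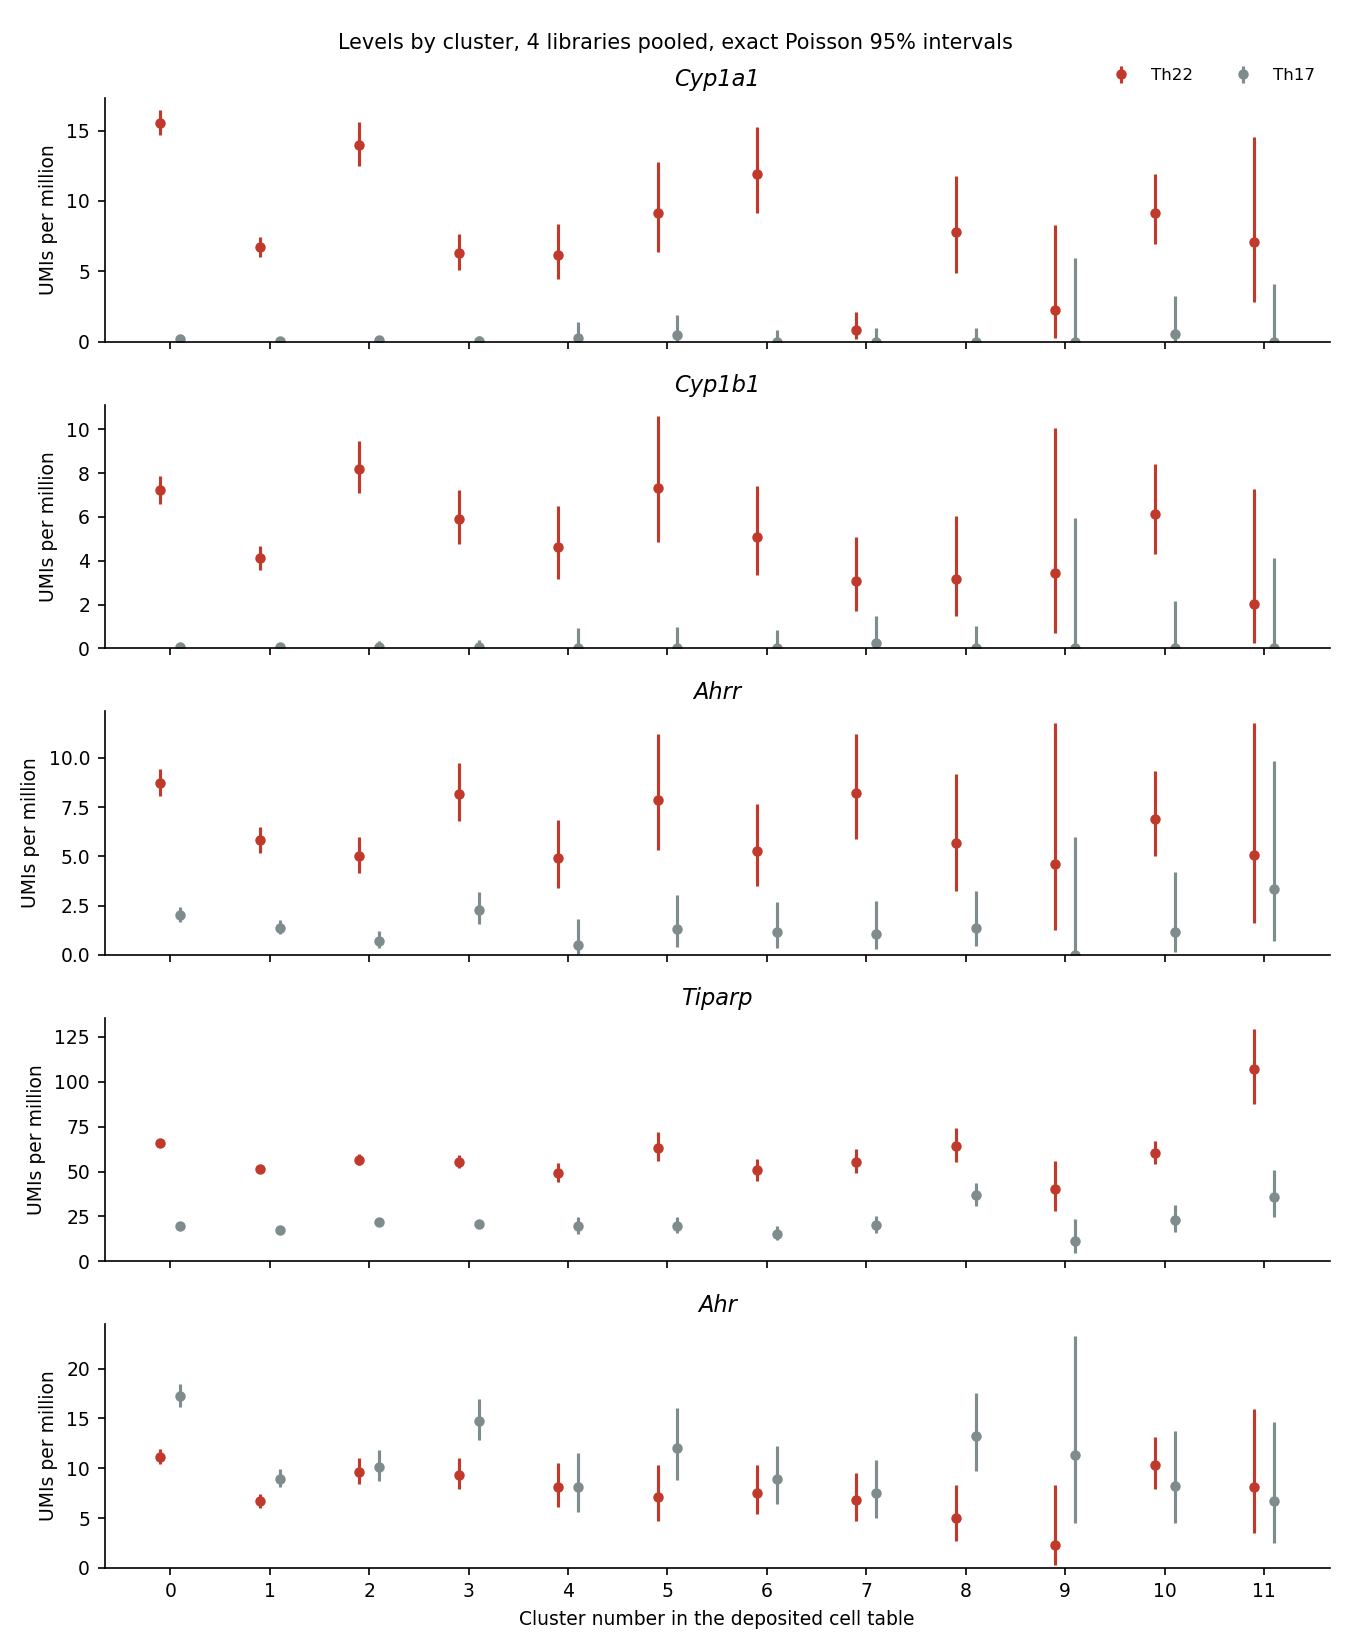
Level of each gene in CPM (y axis) in Th22 and Th17 cells of the 12 clusters (x axis), with the 4 libraries of a condition pooled and bars for exact Poisson 95% intervals, which cover counting error only. Cyp1a1 in Th22 cells ranges from 0.821 in cluster 7 to 15.5 in cluster 0, whereas Tiparp in Th22 lies above Tiparp in Th17 in every cluster.

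Other genes of the pathway were read from lists. Of 10 tested genes of the receptor's complex and its coactivators (Arnt, the HSP90 genes and others), 0 were called higher and 0 lower in Th22 over both genotypes (0.925% of all genes were called lower), and the median log2 fold change was -0.0065, against 0.0044 over all genes. Of 6 tested genes of the classical detoxification battery, 2 were called higher and 0 lower (background 1.01% and 0.925%), with a median of 0.24. Nqo1, the quinone reductase, was at 0.779 and 0.605 CPM in KO Th22, against 0.315 and 0.280 CPM in KO Th17, and at 0.680 and 0.827 CPM in WT Th22, against 0.256 and 0.215 CPM in WT Th17. All Th22 libraries were higher than all Th17 libraries, on 31 to 39 UMIs in each Th22 library and 9 to 13 in each Th17 library (log2 fold change 1.43 ± 0.24, adjusted p = 0.023, edgeR). Cyp2s1, a dioxin-inducible P450, was at 3.74 and 2.74 CPM in KO Th22 against 1.80 and 2.06 CPM in KO Th17. It was at 5.04 and 5.94 CPM in WT Th22 against 2.13 and 3.03 CPM in WT Th17. The conditions overlapped, with WT Th17 replicate 2 higher than KO Th22 replicate 2 (0.92 ± 0.17, adjusted p = 0.029). Leaving out 1 library at a time gave adjusted p of 0.034 to 0.112 for Nqo1 and 0.021 to 0.140 for Cyp2s1. Both calls were lost without KO Th22 replicate 1 or without any 1 of the 4 WT libraries, that of Nqo1 also without KO Th17 replicate 2 and that of Cyp2s1 also without KO Th17 replicate 1. The call of Nqo1 was also lost in thinned cells (adjusted p = 0.302), and with depth as a covariate both were (adjusted p = 0.094 for Nqo1 and 0.126 for Cyp2s1, edgeR).

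Of 13 tested genes tied to the receptor in helper T cells, 1 was called higher and 0 lower (background 1.01% and 0.925%, median 0.26). That was Il22, at 16.7 and 32.0 CPM in KO Th22 against 8.11 and 11.5 CPM in KO Th17, and at 35.4 and 30.0 CPM in WT Th22 against 10.8 and 10.0 CPM in WT Th17 (log2 fold change 1.48 ± 0.21, adjusted p = 0.011). Leaving out 1 library at a time moved that adjusted p between 0.00050 and 0.063, and the call was lost without WT Th22 replicate 2 or either WT Th17 library. Among 7 tested enzymes and carriers of tryptophan ligands (median -0.09) and 10 tested bHLH-PAS relatives such as Hif1a and the clock genes (median -0.07), 0 were called in either direction. With the replicate block, under which 11.9% of all genes were called over both genotypes, 6 of the 13 T cell genes were called, Il21, Maf, Il22 and Entpd1 higher and Il23r and Ikzf1 lower. Of the 7 enzymes and carriers, Slc7a5 and Slc3a2, the 2 chains of an amino acid carrier that takes up tryptophan, were called lower, and of the 10 complex genes the coactivator Ncoa1 was. Between genotypes over both conditions, 5 of the 46 tested genes of these lists were called, where 2.93% of all genes were, chosen for naming after their values were seen: Hsp90ab1 and Serpinb2 were higher in KO, with log2 fold changes of 0.30 and 2.50. Ep300, Entpd1 and Hif1a were lower in KO, with -0.31, -0.99 and -0.47.

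Over the 8 libraries, the genes whose log2 CPM followed that of Cyp1a1 most closely, among the 6337 tested genes that averaged 10 CPM or more, were Ppp1ca (Pearson r = 0.990), Rcc1l (0.987), Asb2 (0.972), Arl4c (0.971) and Slc35d2 (0.968). Rcc1l ran from 12.6 to 14.8 CPM in Th22 libraries and from 5.95 to 7.43 CPM in Th17 libraries. Those closest to Ahr were Cenpq (0.983), D16Ertd472e (0.976), Casc3 (0.975), Foxp1 (0.975) and Snhg5 (0.974). These are descriptions over libraries that share 2 conditions and 2 genotypes, and the best of many candidates.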

How the data were processed

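Per the labels' protocols, the single-cell libraries are of the Chromium 3′ type (v3 chemistry). The deposited matrix held unnormalized UMI counts per gene and cell, and the authors' cell table gave library, cluster and the percent of mitochondrial UMIs; the submitters' processing notes name Cell Ranger 5.0.1, Seurat and the build mm10. The sources used here do not give how clusters were made. Kept were 101688 of 104660 cells, those with 500 genes or more and no more than 10% of UMIs from mitochondria. Doublets were not removed, and 8131 cells with the most UMIs were left out as an alternative.

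Counts were summed per library (33826527 to 58895019 UMIs) and tested with edgeR 4.0.16 (quasi-likelihood F test, robust, TMM, filterByExpr, Benjamini-Hochberg at 0.05) in R 4.3.3. Within-genotype, within-condition and interaction results came from a model with 1 mean per group, results over both from an additive model. SEs and 95% intervals follow from that test. DESeq2 1.42.0 was an alternative. The steps were tested on simulated data in which only Th22 against Th17 differed. Over both genotypes edgeR recovered 91% of 2-fold and 97% of 4-fold changes. Within a genotype it recovered 67% (KO) and 71% (WT) of 2-fold changes. Genotype effects, interactions and paired replicates were not simulated, so those fits were not tested this way. Replicates of a group differed by far more than sampling noise (chi-square per degree of freedom 30.7 to 112 over 6339 genes).

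Replicate numbers from the titles were checked as pairs: deviations from group means correlated at 0.88 (KO) and 0.64 (WT) between same-numbered Th22 and Th17 libraries, so a fit with the number as a block stands beside results it changes. Between same-numbered KO and WT libraries they correlated at -0.56 (Th22) and -0.51 (Th17).

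Shares came from cells thinned without replacement to 1500 UMIs, with binomial (exact) intervals for counting error alone. Named genes were the 5 members, up to 4 called genes per pathway list, the 5 genes most like Cyp1a1 and Ahr, and Gpr65. The members, lists and rule were chosen with earlier results of these data known. Alternatives covered normalization, filters, depth, cells, clusters and leaving out each library.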

Additional observations from a re-analysis of the deposited data

Results flagged for a closer look

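The rise of Tiparp in Th22 against Th17 differed between genotypes in the fit with the replicate number as a block: the log2 fold change was 1.93 in KO and 1.46 in WT, and the difference, KO minus WT, was 0.47 (adjusted p = 0.016, edgeR). Without the block the difference was 0.48, with a 95% interval of -0.18 to 1.15, and did not pass (adjusted p = 1.0). The levels behind it were 71.1 and 47.2 CPM in KO Th22 against 17.4 and 13.3 CPM in KO Th17, and 61.6 and 64.5 CPM in WT Th22 against 22.9 CPM in both WT Th17 libraries.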

How the results depend on the processing

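Over both genotypes, Cyp1a1, Cyp1b1, Ahrr and Tiparp were called higher in Th22 under all 19 alternatives run, with log2 fold changes of 6.01 to 6.86, 6.28 to 7.12, 2.12 to 2.40 and 1.52 to 1.77. No fold change of these 4 genes for Th22 against Th17 reversed in any alternative. Cyp1a1 and Cyp1b1 passed the filter on low counts through Th22 and were near 0 in Th17, so for them this is a description. The causes of the changes listed next were not tested. The number of members called within KO (3) was 5 with the replicate block, 0 in a fit to only the 2 groups compared, 0 with depth as a covariate and 1 to 4 leaving out 1 library at a time. Within WT (3) it was 5 with the block and 0 to 4 leaving out 1 library. In WT, Ahrr was not called in thinned cells (adjusted p = 0.054), without clusters 7, 9 and 11 (0.055) or with the depth covariate (0.056, edgeR). Cyp1b1 was not called in thinned cells in WT (adjusted p = 0.059) or KO (0.082, edgeR). Tiparp in WT (adjusted p = 0.045) and Ahrr in KO (0.049, edgeR) were called in thinned cells. With the block the number of members called was 1 for the interaction (0). For KO against WT over both conditions (0) that number was not 0 in all fits that left 1 library in a group. Calls in those fits are not read as results about these genes. Called pathway genes within KO (0) were 1 by DESeq2, 11 with the block and 0 to 1 leaving out 1 library. Within WT (0) they were 3 by DESeq2, 12 with the block and 3 with only the 2 groups compared, where 226 of all genes were called. Over both (3) they were 5 by DESeq2, 11 with the block and 1 with the depth covariate, where 86 of all genes were called. Fewer were called when any single WT library was left out. The block changed no call of a member other than those given with the results, but it raised the genes called for Th22 against Th17 to 2269 in KO (16), 1733 in WT (20) and 1592 over both (260), and for the interaction to 550 (0). DESeq2 called 181 genes in KO, 146 in WT, 553 over both and 12 for the interaction, and for KO against WT 143 in Th22 (20), 206 in Th17 (25) and 942 over both (393). With crossed numbers as the block, KO against WT gave 488 called genes in Th22, 665 in Th17 and 1568 over both, among them 0 members.

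Reversals among log2 fold changes concerned KO against WT or the interaction, apart from Ahr in Th22 against Th17 in KO. Without both KO libraries numbered 2, KO against WT in Th22 was 0.036 for Ahrr, 0.28 for Cyp1a1 and 0.18 for Tiparp, in Th17 0.083 for Ahrr, and over both 0.052 for Ahrr, 0.23 for Cyp1a1 and 0.000957 for Cyp1b1. With the depth covariate it was -0.031 for Ahr in Th22, and in Th17 0.15 for Ahrr and 0.29 for Cyp1a1. The interaction was -0.37 for Ahr and -0.87 for Cyp1a1 with that covariate, -0.0041 for Ahr without the cells with most UMIs, and for Ahrr 0.066 in thinned cells and 0.0061 without clusters 7, 9 and 11. Without thinning, the share of cells with Cyp1a1 differed by 0.0275 percentage points (KO minus WT). Leaving out 1 library at a time, Ahr ranged over -0.88 to 0.081 for Th22 against Th17 in KO, and for KO against WT over -0.36 to 0.54 in Th22, -0.30 to 0.48 in Th17, -0.050 to 0.30 over both and -0.50 to 0.45 in the interaction. Ahrr ranged over -0.53 to 0.036 in Th22, -0.53 to 0.087 in Th17 and -0.35 to 0.31 in the interaction. Cyp1a1 ranged over -0.45 to 0.28 in Th22, -1.08 to 0.94 in Th17, -0.45 to 0.19 over both and -0.98 to 1.03 in the interaction. Cyp1b1 ranged over -1.17 to 0.043 over both, and Tiparp over -0.41 to 0.18 in Th22. The shares, KO minus WT, ranged over -0.202 to 0.368 percentage points for Ahr, -0.354 to 0.0993 for Cyp1a1 and -0.959 to 0.0780 for any of Cyp1a1, Cyp1b1 and Ahrr. Depth limits Cyp1a1 and Cyp1b1 in Th17, which rest on 0 to 10 UMIs a library.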
